A study of Mus musculus with 8 samples.

Results

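Interferon-stimulated genes are the genes that a cell switches on when interferon binds its receptors. A set of 53 of them was followed in T follicular helper (Tfh) cells of the mouse, which help B cells in the follicles of lymphoid tissue. The set was picked by gene symbol with earlier results of these data known. Shares of the set beside those of all genes therefore describe it and are no independent test. All 53 were among the 16735 genes that both deposited experiments measured. Expression was tested for 52 of the 53, as part of 14418 genes tested in all. Ifi44 stayed under the filter on low counts, with 0 to 10 counts per library.

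Bulk RNA-seq was done on 8 libraries in 4 groups of 2. The groups were ZsGreen+ Tfh cells of Peyer's patch, ZsGreen− Tfh cells of Peyer's patch, ZsGreen+ Tfh cells of spleen and ZsGreen− Tfh cells of spleen. ZsGreen is a fluorescent protein that marks cells with a history in the Th17 state, the IL-17-producing helper state. Every group came from K/BxN mice, which develop arthritis spontaneously, and every group carried the fate-mapping reporter and the same surface gate (CD4+, TCRβ+, CD25-negative, CXCR5+, PD-1+). The labels give neither the promoter that drives the recombinase of the reporter nor the age of the mice. Replicate 1 of each group belongs to experiment 1 and replicate 2 to experiment 2, and values are given below in that order. The labels do not state that replicates are separate animals, so each p-value reflects only how far these libraries vary, and that variation may be technical.

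Interferons fall into types that use different receptors. Type I interferons signal through IFNAR1 and IFNAR2 and assemble a complex that holds STAT2 and IRF9 and binds the interferon-stimulated response element (ISRE) in target promoters such as those of the Ifit, Oas and Mx genes. Interferon-gamma, the product of Th1 cells, signals through IFNGR1 and IFNGR2, acts on promoters with the gamma-activated site (GAS) and induces IRF1 and the guanylate-binding and immunity-related GTPases. Both interferons induce many of the same genes, so a target gene does not tell which interferon was present.

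The promoters of the members carry the letters of these elements, and 8 windows are shown because they are the promoters of members whose values are set out below. They hold the 250 bases before the annotated start and are RefSeq sequence of build GRCm38.p6, printed 5′ to 3′ along the gene's strand. Of the 53 members, 42 matched a promoter entry. The ISRE core was searched as the half-site GAAA followed, after 2 bases of any kind, by GAAA again, and the GAS as TTC followed, after 3 bases of any kind, by GAA. Both strands were read, and matches are in capitals. Neighbouring matches may share letters. Isg15 (chr4:156200819-156201068, minus strand) and Ifit1 (chr19:34640639-34640888, plus strand) are members of the type I set. Ifi214 (chr1:173535958-173536207, minus strand), Ifi208 (chr1:173673415-173673664, plus strand) and Ifi209 (chr1:173630609-173630858, plus strand) are PYHIN genes. Irgm1 (chr11:48871421-48871670, minus strand), Igtp (chr11:58199306-58199555, plus strand) and Gbp2 (chr3:142620413-142620662, plus strand) belong to the gamma set.
Isg15: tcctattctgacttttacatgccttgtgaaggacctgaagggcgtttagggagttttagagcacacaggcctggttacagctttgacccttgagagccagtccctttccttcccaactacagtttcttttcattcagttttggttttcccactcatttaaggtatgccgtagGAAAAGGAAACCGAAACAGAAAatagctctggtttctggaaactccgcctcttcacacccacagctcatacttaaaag
Ifit1: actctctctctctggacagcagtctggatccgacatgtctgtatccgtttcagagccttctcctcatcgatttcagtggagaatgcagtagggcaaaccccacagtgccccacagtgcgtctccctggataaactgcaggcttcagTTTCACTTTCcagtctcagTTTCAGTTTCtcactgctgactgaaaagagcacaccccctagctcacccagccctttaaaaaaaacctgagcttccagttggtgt
Ifi214: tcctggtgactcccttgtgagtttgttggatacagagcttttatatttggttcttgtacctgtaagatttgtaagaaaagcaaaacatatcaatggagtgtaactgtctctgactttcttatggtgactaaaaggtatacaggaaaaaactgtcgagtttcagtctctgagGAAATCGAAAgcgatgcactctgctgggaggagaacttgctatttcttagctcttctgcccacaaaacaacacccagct
Ifi208: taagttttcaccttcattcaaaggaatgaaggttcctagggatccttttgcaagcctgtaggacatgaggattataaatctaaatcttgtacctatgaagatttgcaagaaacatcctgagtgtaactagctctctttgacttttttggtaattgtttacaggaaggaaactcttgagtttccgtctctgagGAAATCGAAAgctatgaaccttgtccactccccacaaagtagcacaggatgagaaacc
Ifi209: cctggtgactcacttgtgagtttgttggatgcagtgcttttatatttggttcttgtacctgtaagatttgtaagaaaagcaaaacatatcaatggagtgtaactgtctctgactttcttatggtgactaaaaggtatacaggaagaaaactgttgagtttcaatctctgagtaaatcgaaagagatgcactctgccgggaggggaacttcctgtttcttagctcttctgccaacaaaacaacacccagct
Irgm1: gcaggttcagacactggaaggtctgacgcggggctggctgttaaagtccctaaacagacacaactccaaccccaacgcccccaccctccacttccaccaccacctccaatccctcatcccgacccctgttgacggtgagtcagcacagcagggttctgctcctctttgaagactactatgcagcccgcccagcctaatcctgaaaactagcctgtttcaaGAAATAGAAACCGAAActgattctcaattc
Igtp: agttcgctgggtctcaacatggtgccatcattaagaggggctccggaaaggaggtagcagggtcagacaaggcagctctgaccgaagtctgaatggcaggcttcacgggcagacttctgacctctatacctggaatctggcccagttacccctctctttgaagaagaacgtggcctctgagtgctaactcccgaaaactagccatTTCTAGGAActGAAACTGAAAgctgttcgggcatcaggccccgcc
Gbp2: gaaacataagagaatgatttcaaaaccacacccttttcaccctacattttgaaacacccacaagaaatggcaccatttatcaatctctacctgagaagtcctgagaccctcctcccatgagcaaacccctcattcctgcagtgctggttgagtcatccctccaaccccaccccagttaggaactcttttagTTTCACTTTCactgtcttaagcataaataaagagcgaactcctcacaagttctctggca

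The ISRE letters were found in the windows of 24 of the 42 members (57.1%). They were in 936 of all 27025 mouse genes with a window (3.46%) and in 323 of the 9790 tested ones (3.30%). The GAS letters were in 9 of the 42 (21.4%), against 8.13% of all genes with a window and 7.12% of the tested ones. All 6 GTPase genes with a window held the ISRE core, and 3 of the 6 also held the GAS. Igtp showed both, a few bases apart. Of the 6 PYHIN windows, 5 held the ISRE core, each with the same letters, GAAATCGAAA, and Ifi209 held no match. A match describes the letters of the window and is neither a binding site nor a cause of any value below.

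The 8 libraries held 10009823 to 15323743 estimated counts. Levels are CPM, the counts scaled to library size with TMM factors, and fold changes are log2 ratios from edgeR's quasi-likelihood test with a term for the experiment, Benjamini-Hochberg adjusted over all 14418 genes. A gene is called at an adjusted p under 0.05. The labels' sort was checked first. All 9 Th17 markers were called higher in ZsGreen+ than in ZsGreen− cells of spleen (median log2 fold change 5.03). In Peyer's patch 5 of 9 were called, and all 9 were higher in both experiments (median 2.71). The 10 Tfh markers were detected in every library. Experiments differed more than groups did, with 66.4% of the variance on a component that separated them. The 10 highest genes of a library held 4.61% to 7.87% of its counts in experiment 1 and 13.4% to 19.9% in experiment 2. Spleen ZsGreen− replicate 2 had the fewest counts and the highest of these shares. Its TMM factor was also the lowest, at 0.656, against 0.818 to 0.971 in the other libraries of experiment 2.

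The members were ordered by group in the same way in both experiments. As a mean over the 52 tested members, log2 CPM was 3.76 and 3.97 in Peyer's patch ZsGreen+ libraries, 4.37 and 4.37 in Peyer's patch ZsGreen−, 4.64 and 4.44 in spleen ZsGreen+ and 5.26 and 5.54 in spleen ZsGreen−. Peyer's patch ZsGreen+ was lowest, spleen ZsGreen− was highest, and the libraries of the 4 groups did not overlap. The gap between Peyer's patch ZsGreen− replicate 2 and spleen ZsGreen+ replicate 2 was the narrowest of these. Bulk values cannot tell fewer responding cells from less RNA per cell.

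Gene by gene, spleen ZsGreen− was the highest of the 4 groups in both experiments for 43 of 52 members (82.7%), against 10% of all tested genes. The 9 exceptions were Isg15, Mx1, Bst2, Eif2ak2, Ifi35, Ifi27l2a, Stat2, Ifih1 and Ifi203. Peyer's patch ZsGreen+ was the lowest in both experiments for 27 members (51.9%), against 7.65% of all tested genes, and these 27 also had spleen ZsGreen− at the top. The experiments themselves moved single members by more than the groups did in some cases. The ADP-ribosyltransferase gene Parp14 was lower in experiment 2 than in experiment 1 by 2.96 log2 units, and Rtp4, a chaperone and antiviral gene, was 2.30 higher, so that levels are compared within an experiment.

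**Figure D1:**
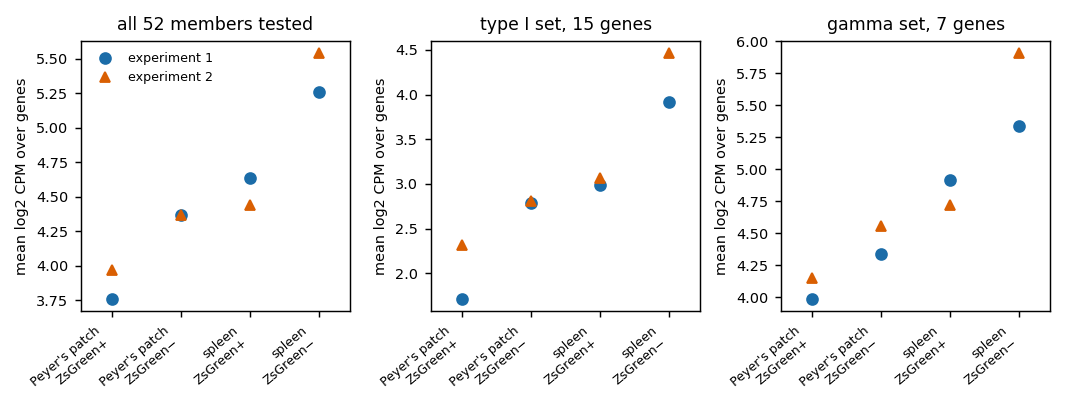
Mean log2 CPM of the members in each of the 8 libraries, for all members, the type I set and the gamma set, with 1 point per library and groups along the horizontal axis. Over all members, the Peyer's patch ZsGreen+ libraries sit at 3.76 and 3.97 and the spleen ZsGreen− libraries at 5.26 and 5.54.

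**Figure D2:**
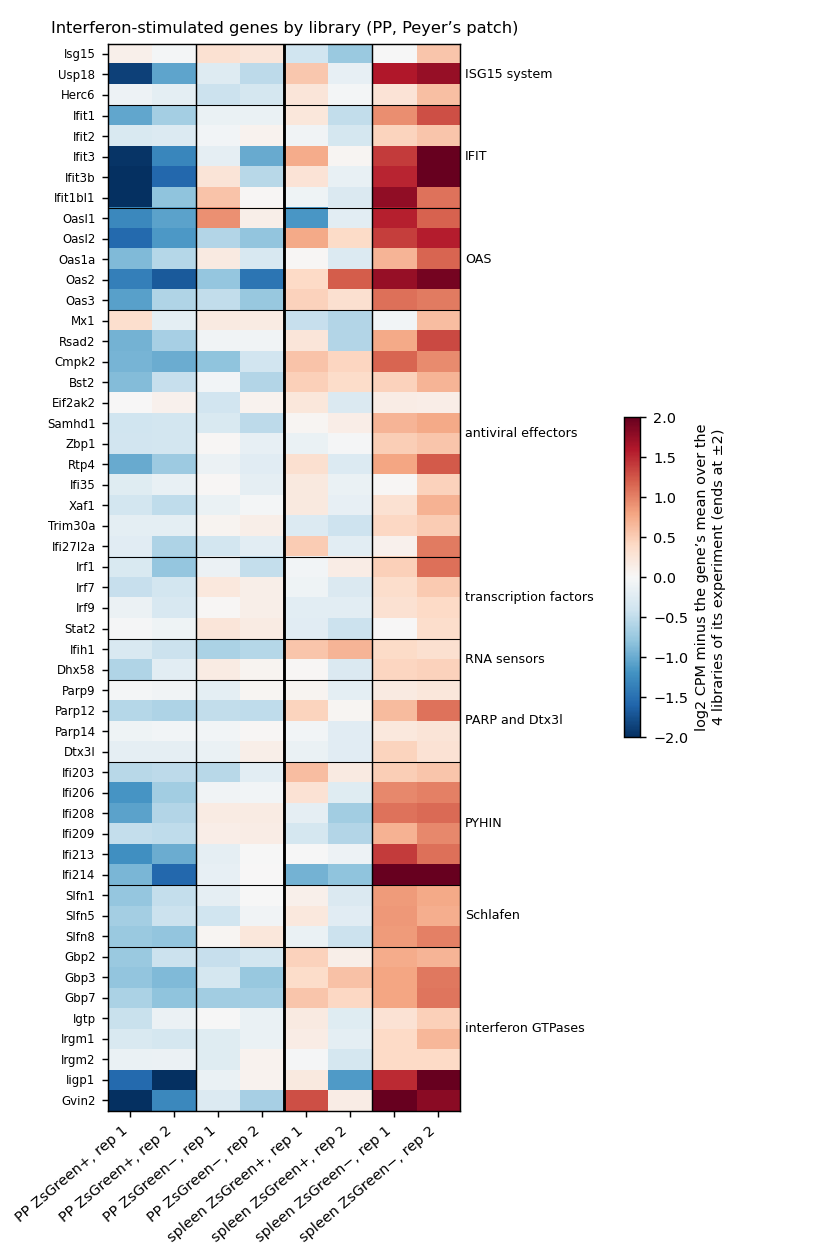
Log2 CPM of each tested member (rows, ordered by role) in the 8 libraries (columns), centred on the member's mean within each experiment. Spleen ZsGreen− is the highest group in both experiments for 43 of the 52 members.

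In spleen, interferon-stimulated genes were lower in ZsGreen+ than in ZsGreen− Tfh cells. Of 52 members, 22 fell and none rose, against 4.09% of all tested genes lower and 4.53% higher. The log2 fold change was negative for 51 of 52, with a median of -0.69, against -0.03 over all tested genes. At an unadjusted p under 0.05, 40 were lower (11.3% of all genes) and none was higher (10.6% of all genes). The 2 ZsGreen+ libraries lay below both ZsGreen− libraries for 28 members, against 9.79% of all genes. Within experiments, the median was -0.52 in experiment 1 and -0.92 in experiment 2. Without spleen ZsGreen+ replicate 2 the count of members that fell was 4, and without spleen ZsGreen− replicate 2 it was 8. Ifi208, Ifi209, Ifi214 and Trim30a were called whichever single library was left out.

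The PYHIN genes, interferon-induced proteins with pyrin and HIN domains of which several bind DNA, fell in spleen for 5 of 6 members. They lie together on chromosome 1 of build mm39, with Ifi214 at chr1:173347283-173363523 on the minus strand, Ifi209 at chr1:173458483-173475494 and Ifi208 at chr1:173501241-173525961, both on the plus strand. Ifi214 had 1.65 and 2.91 CPM in spleen ZsGreen+ cells, against 13.8 and 27.4 CPM in spleen ZsGreen− cells. Both ZsGreen+ libraries were far below both ZsGreen− libraries, a log2 fold change of -3.15 ± 0.34 (SE; edgeR adjusted p = 0.000254). Ifi209 had 46.2 and 51.4 CPM in ZsGreen+ cells, against 96.4 and 150.2 CPM in ZsGreen− cells (-1.30 ± 0.14, edgeR adjusted p = 0.000308). Ifi208 had 21.5 and 24.1 CPM in ZsGreen+ cells, against 51.9 and 85.4 CPM in ZsGreen− cells (-1.53 ± 0.20, edgeR adjusted p = 0.0011). None of these 3 genes overlapped between the groups. Ifi213 (-1.33 ± 0.24) and Ifi206 (-0.93 ± 0.22) also fell, with edgeR adjusted p of 0.00577 and 0.0222. Ifi203 had 204 and 108 CPM in ZsGreen+ cells, against 187 and 141 CPM in ZsGreen− cells, overlapped and was not called (-0.11). The estimated counts of these related neighbours were not whole in several libraries, so reads they share may have been split among them.

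The Schlafen genes, a family linked to T cell quiescence and to restriction of viruses, fell in spleen for 3 of 3 members. Slfn1 had 87.2 and 107 CPM in ZsGreen+ cells, against 147 and 221 CPM in ZsGreen− cells. The groups did not overlap, and the log2 fold change was -0.89 ± 0.16 (edgeR adjusted p = 0.00689). Slfn8 fell by 1.19 (SE 0.21, edgeR adjusted p = 0.00556) and Slfn5 by 0.78 (SE 0.18, edgeR adjusted p = 0.0187). Both overlapped between the groups across experiments and were lower in ZsGreen+ cells within each.

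Of the genes around ISG15, a ubiquitin-like protein that is joined to other proteins in the interferon response, 2 of 3 fell in spleen. Isg15 had 22.4 and 28.7 CPM in ZsGreen+ cells, against 29.7 and 70.8 CPM in ZsGreen− cells (-0.86 ± 0.20, edgeR adjusted p = 0.0201). Usp18, the protease that removes ISG15 and damps signalling at the type I receptor, had 6.55 and 14.8 CPM in ZsGreen+ cells, against 13.8 and 55.5 CPM in ZsGreen− cells (-1.48 ± 0.30, edgeR adjusted p = 0.0112). Usp18 was lower in ZsGreen+ cells within each experiment, and its groups overlapped across experiments. Herc6, which joins ISG15 to its targets in mice, had 34.5 and 24.4 CPM in ZsGreen+ cells, against 35.03 and 37.9 CPM in ZsGreen− cells, and was not called (-0.31, edgeR adjusted p = 0.342).

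The Ifit genes, whose proteins bind foreign RNA, fell in spleen for 3 of 5 members. Ifit1 had 12.4 and 21.4 CPM in ZsGreen+ cells, against 20.2 and 73.6 CPM in ZsGreen− cells (-1.22 ± 0.25, edgeR adjusted p = 0.0125). Ifit3b (-1.93 ± 0.45, edgeR adjusted p = 0.0205) and Ifit1bl1 (-1.68 ± 0.45, edgeR adjusted p = 0.0488) did not overlap between the groups. Ifit3 had 9.58 and 14.8 CPM in ZsGreen+ cells, against 15.3 and 69.8 CPM in ZsGreen− cells, and missed the threshold (-1.48 ± 0.43, edgeR adjusted p = 0.0916). Spleen ZsGreen− replicate 2 was the highest library for Ifit1 and Ifit3 by a wide margin. Reads of the near copies Ifit3 and Ifit3b may have been shared. Of the 5 genes of the oligoadenylate synthetase family, of which some encode enzymes whose product activates the RNA-degrading enzyme RNase L, only Oas1a fell (-1.05 ± 0.23, edgeR adjusted p = 0.0177), with 19.9 and 23.7 CPM in ZsGreen+ cells, against 31.4 and 64.1 CPM in ZsGreen− cells. All 5 had negative fold changes.

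Among the other antiviral effectors, 4 of 12 fell in spleen. Samhd1, which destroys the deoxynucleotides that viruses need, had 216 and 164 CPM in ZsGreen+ cells, against 336 and 251 CPM in ZsGreen− cells. The groups did not overlap (-0.63 ± 0.14, edgeR adjusted p = 0.016). Trim30a, of the TRIM family of ubiquitin ligases, had 66.9 and 44.7 CPM in ZsGreen+ cells, against 108 and 84.6 CPM in ZsGreen− cells (-0.80 ± 0.13, edgeR adjusted p = 0.00294). It did not overlap, and its estimated counts were not whole in any library. Zbp1, a sensor of Z-form nucleic acid, fell without overlap as well (-0.60 ± 0.13, edgeR adjusted p = 0.0157). Rtp4 fell by 0.99 (SE 0.22, edgeR adjusted p = 0.0241) with overlapping groups. Rsad2, which encodes the antiviral enzyme viperin, had 7.46 and 5.57 CPM in ZsGreen+ cells, against 10.7 and 21.2 CPM in ZsGreen− cells, and missed the threshold (-1.17 ± 0.33, edgeR adjusted p = 0.0508). Mx1 (-0.80, edgeR adjusted p = 0.129) and Bst2, the gene of the virus-retaining protein tetherin (-0.15, edgeR adjusted p = 0.749), were not called. The files annotate Mx1 as a polymorphic pseudogene.

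Of the transcription factors of the response, 2 of 4 fell in spleen. Irf7, which amplifies type I interferon production, had 48.7 and 73.97 CPM in ZsGreen+ cells, against 65.7 and 129.5 CPM in ZsGreen− cells (-0.62 ± 0.14, edgeR adjusted p = 0.0167). Irf9, whose protein binds DNA together with STAT2, had 65.7 and 78.1 CPM in ZsGreen+ cells, against 94.1 and 119.6 CPM in ZsGreen− cells (-0.57 ± 0.13, edgeR adjusted p = 0.0201). Irf9 did not overlap between the groups and Irf7 did. Stat2 (-0.48, edgeR adjusted p = 0.104) and Irf1 (-0.77, edgeR adjusted p = 0.108) were not called. Of the ADP-ribosylation genes, Dtx3l fell (-0.56 ± 0.14, edgeR adjusted p = 0.0291), and Parp9, whose protein pairs with DTX3L, did not pass (-0.26). Parp9 and Dtx3l overlap on opposite strands, and where libraries were not directional their reads cannot be told apart. The RNA sensor gene Ifih1, which encodes MDA5, was the member with a positive fold change: 53.3 and 20.1 CPM in ZsGreen+ cells, against 47.1 and 15.6 CPM in ZsGreen− cells (0.26 ± 0.16, edgeR adjusted p = 0.398).

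The interferon-induced GTPases, which attack the vacuoles of intracellular microbes, fell in spleen for 1 of 8 members. Irgm1 had 52.3 and 100.5 CPM in ZsGreen+ cells, against 62.1 and 182 CPM in ZsGreen− cells (-0.55 ± 0.15, edgeR adjusted p = 0.0461). It was lower in ZsGreen+ cells within each experiment, with overlap across them. Gbp7 had 60.8 and 54.4 CPM in ZsGreen+ cells, against 71.6 and 86.3 CPM in ZsGreen− cells, which did not overlap but missed the threshold (-0.45 ± 0.15, edgeR adjusted p = 0.0955). Gbp2 (-0.40) and Igtp (-0.41) were not called, and an exon of Igtp overlaps its neighbour Irgm2 on the same strand. Iigp1 had 7.56 and 2.49 CPM in ZsGreen+ cells, against 18.6 and 50.9 CPM in ZsGreen− cells, and its large fold change came with a large error (-2.74 ± 0.77, edgeR adjusted p = 0.126). The 30 members not called in spleen had log2 fold changes from this value to 0.26.

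**Figure D3:**
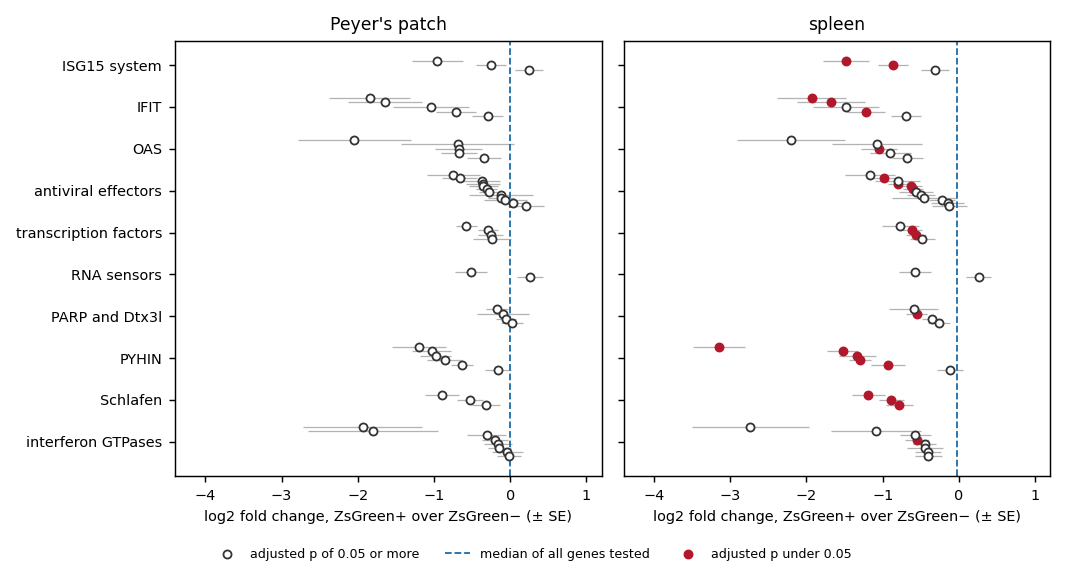
Log2 fold change, ZsGreen+ over ZsGreen−, for each tested member in Peyer's patch and in spleen, ordered by role, with bars of 1 SE and filled points for an adjusted p under 0.05. In spleen 51 of 52 points lie below 0 and 22 are called, and in Peyer's patch 47 lie below 0 and none is called.

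In Peyer's patch, no member was called between ZsGreen+ and ZsGreen− cells by edgeR, where 0.437% of all tested genes were. The fold change was negative for 47 of 52 members, with a median of -0.33, against 0.0016 over all tested genes. With libraries scaled by size only, it was negative for 41 members, with a median of -0.20, against 0.113 over all tested genes. At an unadjusted p under 0.05, 18 members were lower, against 3.82% of all genes, and none was higher, against 4.31%. DESeq2 called 3 members lower, Irf7, Ifi208 and Ifi209, and limma on the normalized tables called none. The ZsGreen+ libraries lay below both ZsGreen− libraries for 17 members (5.22% of all genes) and above them for 1 member, Herc6 (5.59% of all genes).

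Among the members, Ifi208 and Ifi209 had the lowest adjusted p-values there. Ifi208 had 11.6 and 25.9 CPM in Peyer's patch ZsGreen+ cells, against 27.4 and 43.8 CPM in Peyer's patch ZsGreen− cells (-0.98 ± 0.21, edgeR adjusted p = 0.0949). Ifi209 had 42.5 and 54.3 CPM in ZsGreen+ cells, against 64.8 and 85.8 CPM in ZsGreen− cells (-0.63 ± 0.14, edgeR adjusted p = 0.122). Both genes were without overlap, as were Ifi206, Ifi213 and Ifi214, while Ifi203 overlapped. Irf7 had 37.3 and 70.1 CPM in ZsGreen+ cells, against 59.7 and 97.7 CPM in ZsGreen− cells, lower within each experiment (-0.58 ± 0.14, edgeR adjusted p = 0.155). Samhd1, which fell in spleen, had 159.8 and 116 CPM in ZsGreen+ cells, against 170.1 and 103 CPM in ZsGreen− cells (0.03 ± 0.14, edgeR adjusted p = 0.976). Trim30a had 70.7 and 51.9 CPM in ZsGreen+ cells, against 84.3 and 64.6 CPM in ZsGreen− cells (-0.28 ± 0.13, edgeR adjusted p = 0.609). The groups of both genes overlapped.

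Whether the ZsGreen difference was itself different between the tissues was tested as an interaction, Peyer's patch minus spleen. No member passed, where 0.0971% of all genes did, and 6 had an unadjusted p under 0.05, all less negative in Peyer's patch (4.67% of all genes). These were Isg15, Herc6, Samhd1, Trim30a, Ifi209 and Ifi214. Ifi214 had the lowest adjusted p, with a difference of 1.95 ± 0.49 (edgeR adjusted p = 0.184). The difference was positive for 48 of 52 members, against 7420 of all 14418 tested genes. Its median over the members was 0.13 in experiment 1 and 0.59 in experiment 2, and 28 members were positive in both experiments. DESeq2 and limma also called none, so the ZsGreen difference of no member was shown to differ between the tissues. With both tissues averaged, 24 members fell and none rose, against 4.13% of all genes lower and 4.48% higher. They included all 3 Schlafen genes, 5 of 6 PYHIN genes, 3 of 5 Ifit genes and 3 of 5 genes of the oligoadenylate synthetase family, and none of the 8 GTPases. Without Peyer's patch ZsGreen− replicate 1 or 2 the count was 12 or 15. The 9 calls that held whichever library was left out were Ifi206, Ifi208, Ifi209, Ifi213, Ifi214, Irf7, Slfn1, Slfn8 and Trim30a.

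**Figure D4:**
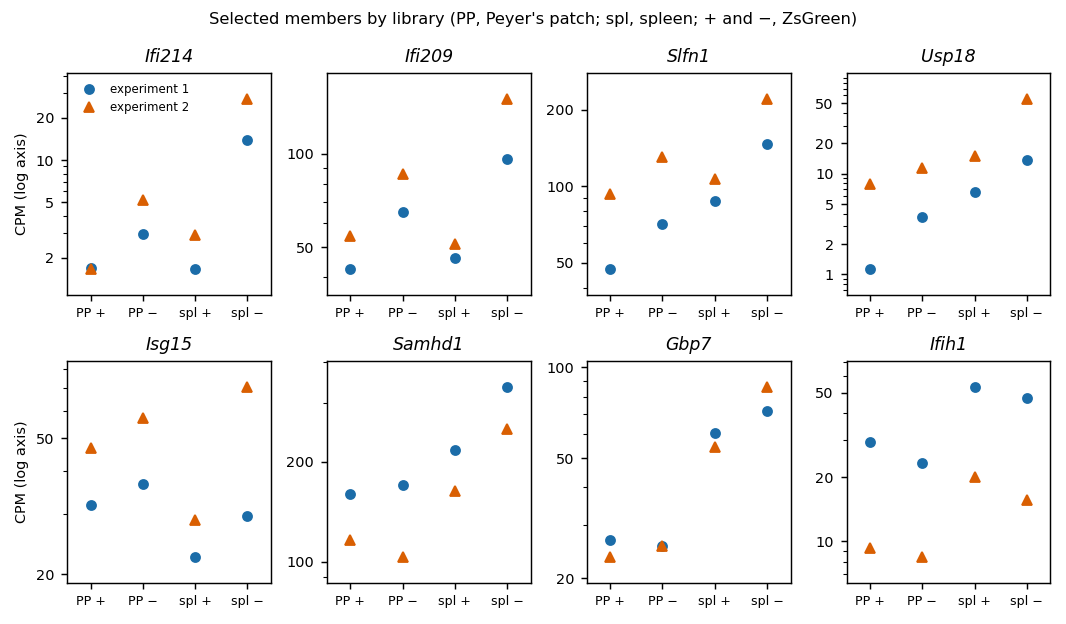
CPM (log scale) of 8 members in the 8 libraries, 1 point per library, with groups along the horizontal axis and the experiments marked apart. Ifi214 stands at 13.8 and 27.4 CPM in spleen ZsGreen− cells, and no other library exceeds 5.21 CPM.

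Between the tissues, interferon-stimulated genes were lower in Peyer's patch than in spleen in both sorts. In ZsGreen+ cells 17 of 52 members were lower and none was higher (7.17% of all genes lower and 5.51% higher), with a median log2 ratio of -0.57. In ZsGreen− cells 30 were lower and none was higher (3.68% of all genes lower and 1.82% higher), with a median of -0.94. The ratio was negative for 42 members in ZsGreen+ cells and 51 in ZsGreen− cells. The ZsGreen and tissue comparisons share libraries, so their values are set side by side and no overlap between them is drawn. In ZsGreen+ cells, 7 members were lower without Peyer's patch ZsGreen+ replicate 1 and 8 without spleen ZsGreen+ replicate 1. In ZsGreen− cells, 11 were lower without Peyer's patch ZsGreen− replicate 1, 10 without its replicate 2 and 14 without spleen ZsGreen− replicate 2.

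The GTPases, which had few calls by ZsGreen, had 3 of 8 called by tissue in ZsGreen+ cells and 4 of 8 in ZsGreen− cells. Gbp7, at chr3:142236103-142255910 of mm39 on the plus strand, had 26.8 and 23.5 CPM in Peyer's patch ZsGreen+ cells, against 60.8 and 54.4 CPM in spleen ZsGreen+ cells (-1.20 ± 0.15, edgeR adjusted p = 0.000398). In ZsGreen− cells it had 25.5 and 25.5 CPM in Peyer's patch, against 71.6 and 86.3 CPM in spleen (-1.63 ± 0.16, edgeR adjusted p = 0.000127). Every Peyer's patch library was below every spleen library. Gbp2 (-0.89 and -1.13) and Gbp3 (-1.33 and -1.46) were likewise lower in ZsGreen+ and ZsGreen− cells, with edgeR adjusted p of 0.00688 or less in all 4 tests.

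Of the oligoadenylate synthetase family, 3 of 5 were lower in Peyer's patch in ZsGreen+ cells and 4 of 5 in ZsGreen− cells. Oasl2 had 1.63 and 3.68 CPM in Peyer's patch ZsGreen+ cells, against 8.68 and 10.9 CPM in spleen ZsGreen+ cells (-1.97 ± 0.30, edgeR adjusted p = 0.00113). In ZsGreen− cells it had 3.32 and 4.76 CPM in Peyer's patch, against 13.4 and 24.99 CPM in spleen (-2.19 ± 0.29, edgeR adjusted p = 0.000986). Here too the tissues did not overlap. Cmpk2, a mitochondrial nucleotide kinase, was lower by log2 ratios of -1.49 and -1.68, with edgeR adjusted p of 0.00141 and 0.00136. Ifih1, which did not pass by ZsGreen, was lower in Peyer's patch in both sorts, at -0.97 and -0.96, with edgeR adjusted p of 0.00229 and 0.00632. All 6 PYHIN and all 3 Schlafen genes were lower in Peyer's patch in ZsGreen− cells, and 3 of 6 and 0 of 3 in ZsGreen+ cells. The transcription factors had 0 of 4 calls in ZsGreen+ cells and 1 of 4, Irf1, in ZsGreen− cells. Isg15 ran the other way in ZsGreen+ cells without passing the threshold. It had 31.8 and 46.9 CPM in Peyer's patch ZsGreen+ cells, against 22.4 and 28.7 CPM in spleen ZsGreen+ cells (0.60 ± 0.20, edgeR adjusted p = 0.0705).

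**Figure D5:**
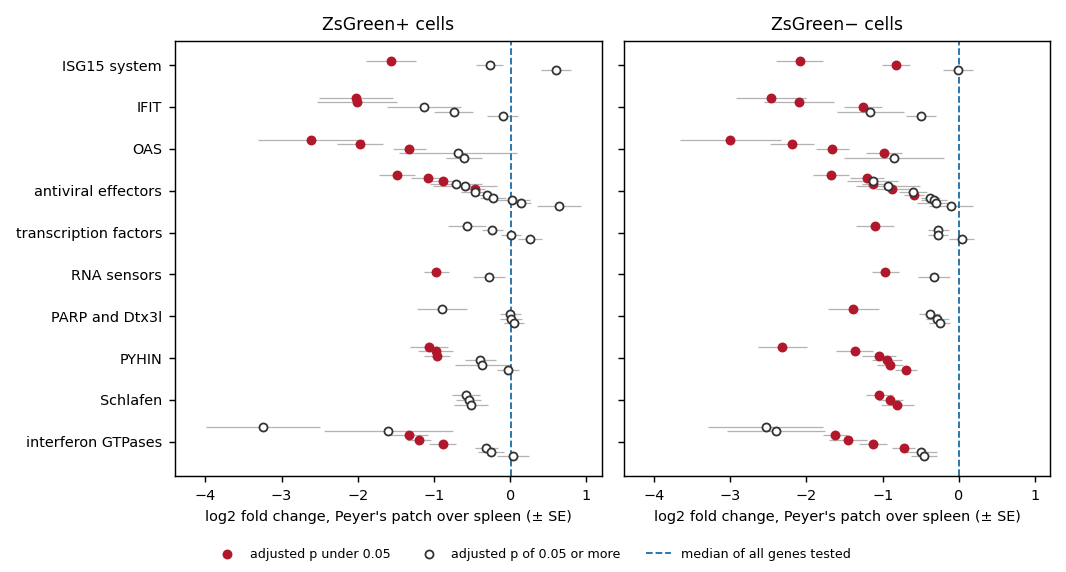
Log2 ratio, Peyer's patch over spleen, for each tested member in ZsGreen+ and in ZsGreen− cells, ordered by role, with bars of 1 SE and filled points for an adjusted p under 0.05. In ZsGreen+ cells 17 members are called lower and in ZsGreen− cells 30, and none is called higher.

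The type I set (15 Ifit, Oas, Mx and like genes) and the gamma set (7 GTPases) were then described side by side. Mean log2 CPM of the type I set was 1.71 and 2.32 in Peyer's patch ZsGreen+, 2.79 and 2.81 in Peyer's patch ZsGreen−, 2.99 and 3.07 in spleen ZsGreen+ and 3.92 and 4.46 in spleen ZsGreen− libraries. The gamma set had 3.99 and 4.15, 4.34 and 4.56, 4.91 and 4.72, and 5.34 and 5.91 in the same order of groups. Both sets had the same order of groups in each experiment. By ZsGreen, the median log2 fold change in spleen was -1.07 for the type I set and -0.45 for the gamma set, with 6 of 15 and 1 of 7 called. In Peyer's patch it was -0.69 for the type I set and -0.16 for the gamma set. By tissue the medians were nearer, at -1.13 and -0.89 in ZsGreen+ cells and -1.26 and -1.13 in ZsGreen− cells. As mean log2 differences by ZsGreen, the type I and gamma sets had -1.16 and -0.81 in spleen and -0.78 and -0.38 in Peyer's patch. With only members of at least 10 CPM (9 and 7 genes), the sets were nearer, at -0.98 and -0.81, and -0.525 and -0.38. By tissue they were then at -0.73 and -0.75 in ZsGreen+ cells, and both at -1.18 in ZsGreen− cells. With all genes of the sets, the type I set had -1.08 in experiment 1 and -0.48 in experiment 2 by ZsGreen in Peyer's patch. The gamma set had -0.35 and -0.41 there, so the gap was wider in experiment 1. In spleen the type I set had -0.93 and -1.40 and the gamma set -0.43 and -1.19. The difference between the sets was not tested.

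The genes upstream were read from lists of the pathway. Ifng was the only one of 21 interferon ligand genes in both tables. It had 1.12 and 8.10 CPM in Peyer's patch ZsGreen+ cells, against 19.2 and 52.03 CPM in spleen ZsGreen+ cells (-3.24, edgeR adjusted p = 0.00504). In ZsGreen− cells it had 2.40 and 5.54 CPM in Peyer's patch, against 20.4 and 133 CPM in spleen (-3.89, edgeR adjusted p = 0.00547). Both ZsGreen comparisons of Ifng missed the threshold, with edgeR adjusted p of 0.982 in Peyer's patch and 0.308 in spleen. Of 5 receptor genes tested in spleen, 1 rose and 2 fell by ZsGreen, against 4.53% of all genes higher and 4.09% lower. Ifngr1, the ligand-binding chain for interferon-gamma, had 79.1 and 384 CPM in ZsGreen+ cells, against 47.6 and 116 CPM in ZsGreen− cells (1.27 ± 0.25, edgeR adjusted p = 0.0174). Ifnar2 fell by 0.48 (edgeR adjusted p = 0.0402) and Il10rb, a chain of the interferon-lambda receptor, by 0.60 (edgeR adjusted p = 0.0272). Ifnar1 and Ifngr2 were not called.

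None of 7 inhibitor genes was called in spleen by edgeR, and 1 was higher and 0 lower at an unadjusted p under 0.05. Of all genes, 10.6% were higher and 11.3% lower at that unadjusted threshold. Of 13 sensor and regulator genes, Myd88 rose, and Irf2, Ikbke and Irf8 fell, against 4.53% of all genes higher and 4.09% lower. Irf8, a transcription factor of the interferon regulatory family, had 4.47 and 4.89 CPM in ZsGreen+ cells, against 25.1 and 27.9 CPM in ZsGreen− cells (-2.50 ± 0.22, edgeR adjusted p = 6.13e-05). Of 46 further interferon-stimulated genes, 14 fell in spleen and 2 rose, against 4.09% of all genes lower and 4.53% higher. The share that rose was thus near that of all genes. The 2 were Ifitm2 (1.72, edgeR adjusted p = 0.00601) and Ifitm3 (2.24, edgeR adjusted p = 0.0251), genes of antiviral membrane proteins. In Peyer's patch edgeR called none of these ligand, receptor, inhibitor, sensor and further genes by ZsGreen, where 0.437% of all genes were. At an unadjusted p under 0.05, 2 of the sensor and regulator genes were lower there, as were 7 of the further genes, and 2 further genes were higher. Of all genes, 3.82% were lower and 4.31% higher at that threshold.

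Other genes moved with the same groups. In spleen, 9 of 10 proliferation genes were higher in ZsGreen+ cells (median log2 fold change 1.39). Of all tested genes, 4.53% were called higher there and 4.09% lower. In Peyer's patch none of the 10 was called, but all 10 were positive (median 0.57) and 8 had an unadjusted p under 0.05. The difference between the tissues was called for none of the 10, with 4 at an unadjusted p under 0.05. By tissue, 9 of the 10 were lower in Peyer's patch in ZsGreen+ cells and 5 in ZsGreen− cells. The Tfh receptor gene Cxcr5 was lower in spleen ZsGreen+ cells (-1.70, edgeR adjusted p = 0.000127), 1 of 4 Tfh markers of 10 that fell there. Of 8 Th1 markers, 3 fell in spleen ZsGreen+ cells, Ccl5 (-4.78), Gzmk (-7.49) and Eomes (-5.96), and Il18r1 rose (1.05). In Peyer's patch, Ccl5, Gzmk (-4.31) and Eomes fell too and Il18r1 rose (1.33). The median over the 8 was -0.83 in spleen and -1.43 in Peyer's patch, with 7 of 8 negative in each. Summed Th1 marker CPM was 363.2 and 406.2 in spleen ZsGreen+ libraries, against 387.1 and 598.5 in spleen ZsGreen− libraries, and lay between 102.7 and 169.6 in the 4 Peyer's patch libraries. The Th1 sum, to which Ifng itself contributes, was lower in Peyer's patch, and its relation to the members was not tested.

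Of 10 B cell markers tested, 2 fell in spleen ZsGreen+ cells, Cd22 (-4.15) and Ighm (-1.39), and Cd22 also fell in Peyer's patch (-1.77). The list as a whole did not run lower. Fold changes were positive for 5 of the 10 in spleen (median 0.52) and 7 of the 10 in Peyer's patch (median 0.51). None was called higher. The summed CPM of the markers was 130.5 and 175.5 in spleen ZsGreen+ libraries, against 240.2 and 733.5 in spleen ZsGreen− libraries, of which Ighm made 201.6 and 713.6. Of the 12 B cell markers in both tables, 6 and 5 were at 0 in those ZsGreen− libraries, Ms4a1 among them, and the others had reads. In the spleen ZsGreen+ libraries 3 and 4 were at 0. Peyer's patch libraries had B cell sums of 341.9 to 686.0 CPM, above both spleen ZsGreen+ libraries. The myeloid sum was 35.5 and 40.01 CPM in spleen ZsGreen− libraries, the lowest of the 8, and 45.6 to 115.6 CPM in the others, with none of 10 markers called by ZsGreen. The part of these genes in the differences of the interferon-stimulated genes was not tested.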

How the data were processed

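The members, the role and marker lists and the tests were chosen with earlier results of these data known. Per the labels, each raw table goes with 1 experiment. The authors deposited raw tables of estimated counts per gene, of which 17.6% to 29.9% in a library were not whole numbers, and these were rounded for testing. The authors' normalized tables hold a signal, which equals the raw counts times 1 constant per library (relative deviation up to 9.21e-06), and were used for 1 alternative. The submitters' processing notes name Partek, STAR, DESeq2 and build mm39. No versions or parameters of these tools were given. The extract protocol names poly A enrichment or a non-directional preparation for little RNA, and which library had which is not stated.

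The tables held 18114 and 20397 genes, and the 16735 in both were used. With edgeR 4.0.16 (R 4.3.3), 14418 genes passed the filter (minimum count 10, minimum total 15), and were tested with TMM scaling (factors 0.656 to 1.24), robust quasi-likelihood dispersion, 4 group means and a term for the experiment, which left 3 residual degrees of freedom. Same-numbered libraries pair by experiment per the labels, and their deviations from group means correlated across genes, which are no replicates, with r of 0.825 to 0.867 over 6 pairs of groups. Log2 CPM used a prior count of 2. The test was also run on simulated counts with changes set in the spleen ZsGreen+ group only, and no result here rests on that run. DESeq2 1.42.0 and limma 3.58.1 served as alternatives, with other scalings, filters, no experiment term and each library left out. All 53 members could be named, with full statistics for a fixed subset and for those called by ZsGreen; Zbp1, Cmpk2, Gbp3 and other members are named by role. Promoter letters come from RefSeq (GRCm38.p6), a build other than that of the files, and no coordinates were converted. The kinase and STAT list and some marker genes are not reported here.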

Additional observations from a re-analysis of the deposited data

How the results depend on the processing

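Without the replicate block (the experiment term), edgeR called 0 genes and 0 members in every comparison, against 22 members lower in spleen, 24 on the mean of the tissues, 17 by tissue in ZsGreen+ and 30 by tissue in ZsGreen− cells with it; the medians stayed negative, at -0.67 in spleen and -0.30 in Peyer's patch. Of the settings that kept the experiment term and all libraries, 13 of the 22 spleen calls, 16 of 24, 15 of 17 and 23 of 30 held in each.

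By ZsGreen in Peyer's patch, genes called numbered 170 with library size only and 147 with DESeq2, against 63, and 7 to 88 with 1 library left out. Members lower there numbered 2 with library size only, 1 with no filter, 3 with DESeq2 and 0 to 3 with a library left out. With a library left out, 487 to 1357 genes were called in either direction in spleen, and 4 to 27 members were called lower. On the mean of the tissues, 547 to 1020 genes were then called in either direction, and 12 to 26 members were called lower. For the difference between tissues, genes called numbered 113 with library size only, 47 with no filter, 144 with DESeq2 and 2 to 93 with a library left out, against 14, and members lower 0 to 1. By tissue with a library left out, 863 to 1965 genes were called in either direction in ZsGreen+ cells, and 7 to 20 members were called lower. In ZsGreen− cells, 313 to 893 genes were then called in either direction, and 10 to 32 members were called lower. One setting, library size only, called 1 member higher by tissue in ZsGreen+ cells (0 to 1 with a library left out). The gamma set's mean log2 difference by ZsGreen in Peyer's patch, -0.38, was -0.27 with library size only and -0.49 to -0.27 with a library left out. By tissue in ZsGreen− cells it was -1.18, and -1.46 to -0.89 with a library left out. By ZsGreen in spleen it was -0.81, and -0.52 without spleen ZsGreen− replicate 2 and -1.09 without its replicate 1. The type I set's difference by ZsGreen in Peyer's patch, -0.78, was -0.48 without Peyer's patch ZsGreen+ replicate 1 and -1.09 without its replicate 2.

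No call turned its direction. Uncalled values near 0 did. With library size only, Mx1 in Peyer's patch was 0.025, Parp14 0.054, Gbp7 0.086, and Bst2 in spleen 0.0094. With 1 library left out, log2 values in Peyer's patch ran from -0.46 to 0.22 for Mx1, -0.69 to 0.0104 for Bst2, -0.11 to 0.18 for Samhd1, -0.57 to 0.027 for Irf1, -0.39 to 0.054 for Gbp2, -0.13 to 0.066 for Gbp7 and -0.46 to 0.016 for Igtp. The cause was not tested. With library size only, the median of all genes was 0.111 to 0.163 in all comparisons but the difference between tissues, against -0.0312 to 0.015 with TMM. The spleen split of all genes was then 852 higher and 411 lower, against 653 and 590. On the mean of the tissues it was 955 and 377, against 646 and 596, and by tissue 1009 and 873, against 794 and 1034, in ZsGreen+ cells and 454 and 532, against 262 and 530, in ZsGreen− cells. Then 48 of 52 members were negative in spleen and 41 in Peyer's patch, against 51 and 47. With 2 libraries a group, small differences were not detectable.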
